A study of Mus musculus with 18 samples.

Results

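The genes described here are 8 C-type lectin receptors of myeloid cells, Clec4e, Clec4d, Clec4n, Clec4a2, Clec5a, Clec7a, Clec10a and Clec12a. They were chosen by symbol and matched to their Ensembl identifiers through the GRCm38 mouse annotation, which gave 8 of the 49315 counted genes. RNA-seq was performed on mouse bone marrow-derived macrophages (BMDMs), which had been grown in medium conditioned by L929 fibroblasts, a source of macrophage colony-stimulating factor. The 18 libraries form 6 groups of 3 biological replicates, with the genotype label WT or HDAC3 KO and no treatment, non-apoptotic cells (NACs) or apoptotic cells (ACs). HDAC3 is a histone deacetylase that works within the NCoR and SMRT corepressor complexes. According to the study's methods, the WT label stands for HDAC3 f/f mice, in which loxP sites flank an exon of Hdac3, and the KO label for M-HDAC3-/- mice, which carry the same floxed alleles and a Cre driven by the lysozyme M (LysM) promoter. The deletion is therefore confined to cells in which that promoter has been active, and both genotypes carry the floxed alleles. The floxed mice were of the C57BL/6J strain, and the age of the mice is not given in the sources used here. The cells offered to the BMDMs were K562, human leukemia cells that grow in suspension. ACs had been exposed to UV-B for 15 min and then kept for 2 h, and NACs had not. BMDMs were cocultured with them for 45 min, washed and kept for 5 h before RNA was isolated, so the NAC groups control for contact with K562 cells and the untreated groups for any coculture. Whether replicates with the same number came from the same mice is not stated. The main fits treat all libraries as independent, and their p values rest on the spread between these libraries.

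C-type lectin receptors bind sugars, lipids or debris of damaged cells at the surface of myeloid cells. The activating members signal through an immunoreceptor tyrosine-based activation motif, either in their own tail or in a partner chain (Fcer1g or Tyrobp), to the kinase SYK and from there through CARD9 to NF-kB. The inhibitory members carry an inhibitory motif that recruits the phosphatases SHP-1 and SHP-2 and restrains this response. Several of them, Mincle (Clec4e) and MICL (Clec12a) among them, are known for sensing material from dead cells.

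All 8 genes lie on GRCm38 at the same start and end in the files and in GENCODE M21. A cluster on chromosome 6 holds Clec4a2 (ENSMUSG00000030148, 123106428 to 123143999, plus strand), Clec4n (ENSMUSG00000023349, 123229843 to 123247021, plus), Clec4d (ENSMUSG00000030144, 123262111 to 123275265, plus) and Clec4e (ENSMUSG00000030142, 123281789 to 123289870, minus). Further along chromosome 6 are Clec12a (ENSMUSG00000053063, 129342691 to 129365303, plus) and Clec7a (ENSMUSG00000079293, 129461591 to 129472779, minus), and at lower coordinates of the same chromosome is Clec5a (ENSMUSG00000029915, 40574894 to 40585821, minus). Clec10a (ENSMUSG00000000318) lies alone on chromosome 11, at 70156197 to 70170834 on the plus strand. The counted exons total from 1420 bases in Clec4n to 5528 in Clec12a. No exon base of a member is shared with another gene, although the Clec4a2 span contains Gm44132. Clec4a2 has close paralogs in its cluster, such as Clec4a1 and Clec4a3, and reads that match more than 1 of them could be divided or lost in counting.

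The 250 bases before a RefSeq start site (GRCm38.p6) were available for 6 of the 8 members. Those of Clec4e and Clec7a are shown because these 2 genes differed between the genotype labels with ACs, that of Clec4d because it is the next gene to Clec4e and did not pass the test there, and that of Clec5a because it differed with NACs and without treatment. Each is written 5′ to 3′ on the strand of the gene, with matches to the searched motifs in capitals, at chr6:123289872-123290121 (minus strand) for Clec4e, chr6:123261857-123262106 (plus) for Clec4d, chr6:129472780-129473029 (minus) for Clec7a and chr6:40585806-40586055 (minus) for Clec5a.
Clec4e: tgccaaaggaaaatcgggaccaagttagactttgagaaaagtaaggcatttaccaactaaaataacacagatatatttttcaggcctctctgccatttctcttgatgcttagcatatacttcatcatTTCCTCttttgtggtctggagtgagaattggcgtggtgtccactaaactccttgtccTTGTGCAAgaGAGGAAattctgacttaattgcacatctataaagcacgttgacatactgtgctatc
Clec4d: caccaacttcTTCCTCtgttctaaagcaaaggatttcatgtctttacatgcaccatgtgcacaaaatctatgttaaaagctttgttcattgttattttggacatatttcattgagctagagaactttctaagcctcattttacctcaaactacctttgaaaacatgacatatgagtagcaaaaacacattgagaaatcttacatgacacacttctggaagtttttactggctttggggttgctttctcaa
Clec7a: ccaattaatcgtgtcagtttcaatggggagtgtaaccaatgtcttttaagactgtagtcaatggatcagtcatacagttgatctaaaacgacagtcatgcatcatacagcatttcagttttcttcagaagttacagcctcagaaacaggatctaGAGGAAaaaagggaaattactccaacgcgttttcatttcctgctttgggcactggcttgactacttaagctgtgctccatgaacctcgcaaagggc
Clec5a: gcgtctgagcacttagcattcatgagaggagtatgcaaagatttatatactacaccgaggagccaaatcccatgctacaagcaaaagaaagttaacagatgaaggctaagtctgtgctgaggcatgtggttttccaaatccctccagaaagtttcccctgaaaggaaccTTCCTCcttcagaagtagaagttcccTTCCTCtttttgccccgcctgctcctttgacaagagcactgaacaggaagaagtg

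The motifs were searched on both strands. They were the PU.1 core GAGGAA, AP-1 TGANTCA, the C/EBP core TTGCNNAA and the interferon response element (GAAA and GAAA on either side of any 2 bases). Of 32851 mouse windows of this length, 23.3% held the PU.1 core, 6.75% AP-1, 9.56% the C/EBP core and 2.98% the interferon element. The Clec4e window held the PU.1 core 123 and 56 bases before the start and a C/EBP core at 66 bases, 2 bases apart from the nearer PU.1 core. Clec4d held a PU.1 core at 240 bases, Clec7a at 96 bases, and Clec5a at 81 and 55 bases. Of the members not shown, Clec12a held 2 PU.1 cores, 1 AP-1 motif and 1 C/EBP core, and Clec4a2 held none of the 4 motifs. The RefSeq start used for Clec12a, Clec4a2 and Clec5a lies inside the gene span given above, so their matches and distances refer to that start and not to the first base of the span. The interferon element was in none of the 6 windows. PU.1 and C/EBP factors are the main regulators of myeloid identity, but a match is only a run of letters and was not tested for binding.

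Total counts per library ranged from 4704491 (untreated, KO label, replicate 1) to 26421267, with a median of 16477929. Counts were scaled to CPM (counts for each 1000000 of the library, with TMM factors over the 18 libraries). The 8 markers of macrophages summed to between 5981 and 19820 CPM. The summed level was 71.4 to 521 CPM for 5 monocyte markers, 227 to 1284 for 12 granulocyte markers, 9.48 to 298 for 10 fibroblast markers, 7.63 to 68.1 for 10 B cell markers, 1.23 to 6.90 for 8 T or NK cell markers and 1.19 to 6.62 for 10 dendritic cell markers. No marker of these lists was at 0 in all 18 libraries, but 9 of the 10 dendritic cell markers, all 8 T or NK cell markers and 8 of the 10 B cell markers had a median under 1 CPM. In bulk RNA, fewer cells that express a receptor and less receptor RNA per cell cannot be told apart.

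Hdac3 itself did not separate the genotype labels. In the libraries labelled WT it stood at 3.38, 44.4 and 32.0 CPM untreated, at 48.8, 44.0 and 11.6 with NACs and at 7.13, 38.3 and 29.7 with ACs. In those labelled KO it stood at 38.7, 11.4 and 74.6 CPM untreated, at 4.66, 34.1 and 42.6 with NACs and at 39.8, 10.1 and 17.9 with ACs. The highest Hdac3 level of all was in a library labelled KO and the lowest in a library labelled WT. The count covers the whole gene, not the floxed exon alone, so it is no direct check of the deletion. Every genotype difference given here is therefore a difference between labels.

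The libraries also differed in the GC content of the genes they counted, taken as the mean over all counts. Untreated libraries had 52.3%, 52.1% and 52.7% with the WT label and 55.0%, 54.1% and 54.0% with the KO label. With NACs the order was the opposite, with 54.5%, 53.3% and 54.3% for WT and 52.5%, 53.1% and 52.9% for KO. With ACs the labels overlapped, at 52.8%, 54.4% and 53.8% for WT and 52.9%, 52.9% and 54.0% for KO. Exons of the 7 members on chromosome 6 have a GC content from 40.1% to 45.5%, and those of Clec10a 51.9%, beside a median of 50.3% over the kept genes. Each comparison was therefore also fitted with a GC and length offset, and where this ended the call of a member this is stated.

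**Figure D1:**
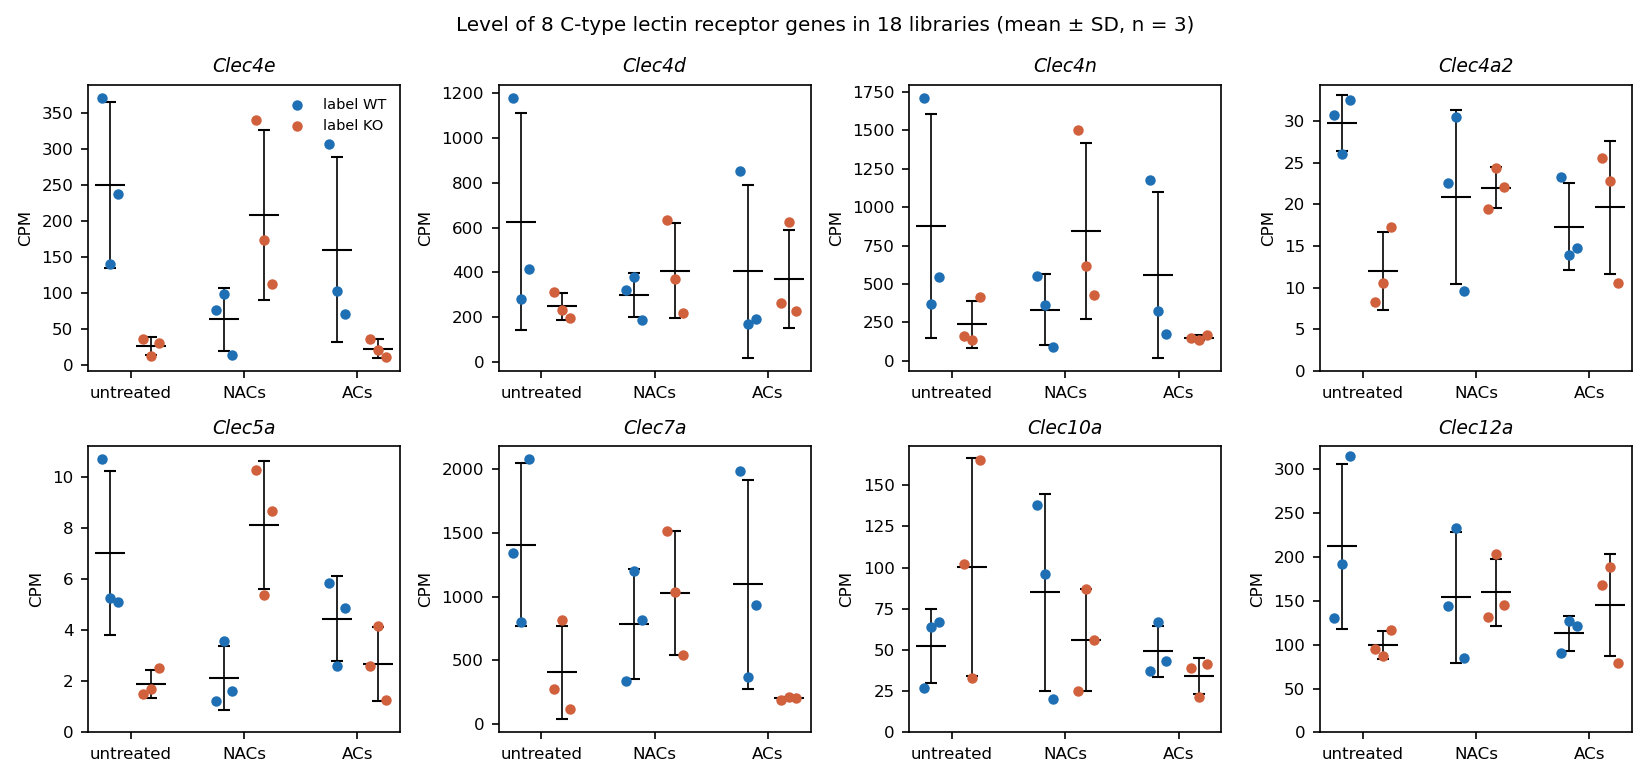
Level (CPM, linear axis) of each of the 8 genes in every library, by treatment and genotype label, with points for libraries and black lines for the mean ± SD of 3 libraries. For Clec4e the libraries labelled KO lie below those labelled WT without treatment and with ACs, and above them with NACs.

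Per kilobase of counted exon, the members spanned a wide range of levels. Clec7a was highest, with a median over the 18 libraries of 307 CPM per kb, followed by Clec4n (259) and Clec4d (187), whose ranges overlapped. Clec12a (23.7), Clec4e (17.7) and Clec10a (17.2) came next and overlapped one another. Their highest libraries, at 57.0, 74.9 and 57.1 CPM per kb, lay above the lowest library of Clec7a (44.1) and below that of Clec4d (107). Clec4a2 had a median of 7.62 CPM per kb, a range that overlapped that of Clec10a, and Clec5a was lowest, at 1.01. The highest Clec5a library had 2.80 CPM per kb and the lowest Clec4a2 library 2.84. Clec4e varied most over the 18 libraries, by 35.1 times from its lowest to its highest level, and Clec4a2 and Clec12a least, by 3.92 and 3.97 times. Each gene was detected in every library, with at least 6 counts for Clec5a, 33 for Clec4a2 and 146 for Clec4e.

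With ACs, the question was how the KO label changed macrophages that had met apoptotic cells, and 2 of the 8 receptors, Clec4e and Clec7a, were lower in the KO label. In this comparison 3.75% of the 12304 genes tested passed an adjusted p of 0.05 (edgeR quasi-likelihood test, Benjamini-Hochberg over all genes). Clec4e encodes Mincle, an activating receptor for the mycobacterial cord factor and for SAP130, a nuclear protein released by dying cells. It stood at 308, 103 and 71.4 CPM in the libraries labelled WT and at 36.3, 21.3 and 10.6 CPM in those labelled KO, so that every KO library lay below every WT library. The difference was 7.31-fold (log2 fold change -2.87, SE 0.59, edgeR adjusted p = 0.0247). Clec7a encodes Dectin-1, the receptor for fungal beta-glucan, which carries an activation motif in its own tail. Its level was 1987, 370 and 933 CPM with the WT label, a wide spread, and 187, 213 and 205 CPM with the KO label, a narrow one, and the groups did not overlap. It was 5.61-fold lower (log2 -2.49, SE 0.52, edgeR adjusted p = 0.0214). Both calls were kept with the GC and length offset, at log2 -2.29 and edgeR adjusted p = 0.0207 for Clec4e and log2 -1.42 and adjusted p = 0.0347 for Clec7a. Both were lost in edgeR without KO replicate 1 (adjusted p = 0.314 for each) and without KO replicate 3 (adjusted p = 0.0592 for Clec4e and 0.0562 for Clec7a), although the log2 differences stayed at -3.34 and -2.51 for Clec4e and -2.40 and -2.46 for Clec7a. The sizes rested most on WT replicate 1, without which they were log2 -1.98 for Clec4e and -1.70 for Clec7a and still called (edgeR adjusted p = 0.0181 and 0.0350).

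Clec4n, which encodes Dectin-2, the receptor for fungal mannans, did not pass the test with ACs. Its level was 1175, 324 and 176 CPM in WT and 148, 134 and 169 CPM in KO, which do not overlap (log2 -1.95, edgeR adjusted p = 0.0651). The Wald test of DESeq2 called Clec4n (log2 -1.91, adjusted p = 0.0179), beside 1344 of 13497 genes. With the GC and length offset it did not pass (log2 -1.38, edgeR adjusted p = 0.117). It passed without WT replicate 2 (edgeR adjusted p = 0.00835) and without WT replicate 3 (0.00975), while without WT replicate 1 the log2 difference was -0.79 (adjusted p = 0.345). The 3 members Clec4e, Clec7a and Clec4n were those whose groups did not overlap with ACs, beside 28.3% of all genes tested. An exact two-sided permutation test on 3 libraries against 3 cannot give a p below 0.1, the value it gave for each of these 3 genes. Clec4d (MCL), which pairs with Mincle and raises its surface level, had 851, 170 and 194 CPM in WT and 262, 623 and 229 CPM in KO. These groups overlapped throughout (log2 -0.15, edgeR adjusted p = 0.901), and the sign turned positive with the offset, at 0.80, and without WT replicate 1, at 1.02. The DAP12-coupled Clec5a (MDL-1) was at 5.87, 2.62 and 4.87 CPM in WT and 2.62, 4.17 and 1.28 CPM in KO (log2 -0.73, edgeR adjusted p = 0.432). The inhibitory receptors Clec4a2 (DCIR) and Clec12a did not pass either, with log2 differences of 0.14 and 0.33 and edgeR adjusted p = 0.866 and 0.655. Clec10a, the galactose-type lectin MGL1 of alternatively activated macrophages, had a log2 difference of -0.60 (edgeR adjusted p = 0.377). The 8 macrophage markers together were higher in the KO libraries with ACs, at 14830 to 16920 CPM beside 9196 to 11150 in WT, whereas without Lyz2 the other 7 overlapped, at 5158 to 12860 beside 5758 to 7560 CPM, and their part in these differences was not tested.

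Without treatment, 4 of the 8 members were lower in the KO label, Clec4e, Clec4n, Clec5a and Clec4a2, beside 11.6% of the 12101 genes tested. Clec4e stood at 372, 141 and 238 CPM in WT and 36.7, 12.6 and 30.1 CPM in KO, without overlap. It was 10.4-fold lower (log2 -3.38, SE 0.52, edgeR adjusted p = 0.0183). Clec5a was at 10.7, 5.27 and 5.11 CPM in WT and at 1.51, 1.69 and 2.54 CPM in KO, again without overlap. It was 3.90-fold lower (log2 -1.96, SE 0.52, edgeR adjusted p = 0.0364). Clec4a2 was at 30.7, 26.1 and 32.5 CPM in WT and at 8.30, 10.5 and 17.3 CPM in KO, with no overlap. It was 2.64-fold lower (log2 -1.40, SE 0.41, edgeR adjusted p = 0.0461). Clec4n was at 1713, 373 and 544 CPM in WT and at 160, 139 and 413 CPM in KO, so that the highest KO library lay above the lowest WT library (log2 -2.04, SE 0.61, edgeR adjusted p = 0.0482).

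The other 3 members on chromosome 6 were also below 0 without passing the test, Clec7a at log2 -1.80 (edgeR adjusted p = 0.0760), Clec4d at -1.45 (0.0784) and Clec12a at -1.18 (0.0688). Clec7a passed without KO replicate 2 (log2 -2.92, edgeR adjusted p = 0.0418). Clec4d and Clec12a passed without KO replicate 1 (0.00275 and 0.0104), while without WT replicate 1 Clec4d had log2 -0.61. The Wald test of DESeq2 called all 3 (adjusted p = 0.0274, 0.0468 and 0.0481). Clec12a was at 130, 192 and 315 CPM in WT and at 94.8, 87.4 and 117 CPM in KO. Its groups, like those of Clec4e, Clec5a and Clec4a2, did not overlap, which held for 40.9% of all genes tested. Clec10a was the exception in sign, at 26.9, 63.7 and 67.3 CPM in WT and 102, 33.1 and 165 CPM in KO (log2 0.79, edgeR adjusted p = 0.282). With the GC and length offset, no member passed without treatment and no gene of the 12101 did. Clec4e then had log2 -2.12 (edgeR adjusted p = 0.0868), and Clec4n, Clec5a and Clec4a2 had log2 -0.97, -0.49 and 0.13 (adjusted p = 0.445, 0.680 and 0.922). Clec7a and Clec4d had log2 -0.57 and -0.11, and Clec12a also turned positive, at 0.13. The calls of Clec4a2 and Clec4n were also lost with DESeq2 size factors (edgeR adjusted p = 0.0508 and 0.0532), that of Clec4a2 without a filter (0.0851) and that of Clec4n with all 18 libraries in one fit (0.0811). The replicate block ended the calls of Clec4a2 and Clec4n as well (edgeR adjusted p = 0.0532 and 0.0508), while Clec7a passed with it (0.0476). The calls were also lost in many fits with a single library left out, while the log2 differences stayed below 0. They were -3.72 to -2.96 for Clec4e, -2.19 to -1.56 for Clec5a and -1.68 to -1.26 for Clec4a2. In edgeR, the call of Clec4e was lost without KO replicate 3 (adjusted p = 0.0562), WT replicate 2 (0.0697) or WT replicate 3 (0.0872). Those of Clec5a and Clec4a2 were lost without WT replicate 1, 2 or 3 or KO replicate 2 or 3 (adjusted p = 0.0711 to 0.172 and 0.0706 to 0.170), and that of Clec4n was lost whichever of the 6 libraries was left out (0.0672 to 0.254). Clec4n had log2 -1.08 without WT replicate 1 and -2.63 without KO replicate 3. Lyz2, the gene whose promoter drives the Cre, had 13810, 6730 and 4533 CPM in WT and 1479, 2560 and 3091 CPM in KO. In the cocultures its mean was instead higher in KO, with overlapping groups. It was 8933 CPM beside 3985 in WT with NACs, and 6895 beside 3872 with ACs. Without treatment the other 7 macrophage markers did not follow Lyz2, with sums of 3897 to 6337 CPM in WT and 4502 to 15380 CPM in KO that overlapped. The part of these markers in the result was not tested.

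With NACs 7 of the 8 log2 differences were above 0 and 1 passed. With the GC and length offset 5 were above 0, as Clec4a2 went from log2 0.099 to -0.29 and Clec12a from 0.071 to -0.46. None of the 8 passed with the offset, and no gene of the 11923 did. Clec5a was higher in the KO label, at 10.3, 5.38 and 8.68 CPM beside 1.23, 3.59 and 1.62 CPM in WT, with no overlap. It was 3.84-fold higher (log2 1.94, SE 0.47, edgeR adjusted p = 0.0443), the 1 member called beside 0.864% of the 11923 genes tested. Clec4e was at 341, 174 and 113 CPM in KO and at 77.1, 99.0 and 14.6 CPM in WT, which do not overlap, but it did not pass the test (log2 1.75, SE 0.73, edgeR adjusted p = 0.204). Non-overlapping groups, found for these 2 members, were found for 27.0% of all genes tested. Clec4n was at 1499, 614 and 427 CPM in KO and at 549, 362 and 90.1 CPM in WT (log2 1.39, edgeR adjusted p = 0.233). With the replicate block Clec4e (log2 2.00, edgeR adjusted p = 0.00135) and Clec4n (log2 1.51, adjusted p = 0.0303) also passed, beside 217 of 11923 genes. Without KO replicate 1 the log2 difference of Clec4n was 0.66 (edgeR adjusted p = 0.522). The other 5 members had log2 differences from -0.58 to 0.49 and none passed. With the offset the call of Clec5a was lost (log2 1.53, edgeR adjusted p = 0.166), as it was with all 18 libraries in one fit (0.240). It was also lost in edgeR without KO replicate 1 (adjusted p = 0.130), KO replicate 2 (0.0671), WT replicate 1 (0.243) or WT replicate 3 (0.209), whereas without KO replicate 3 Clec4e (0.000634) and Clec4n (0.0180) passed as well. Without WT replicate 2 the difference of Clec5a was larger, at log2 2.62 (edgeR adjusted p = 0.00536).

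**Figure D2:**
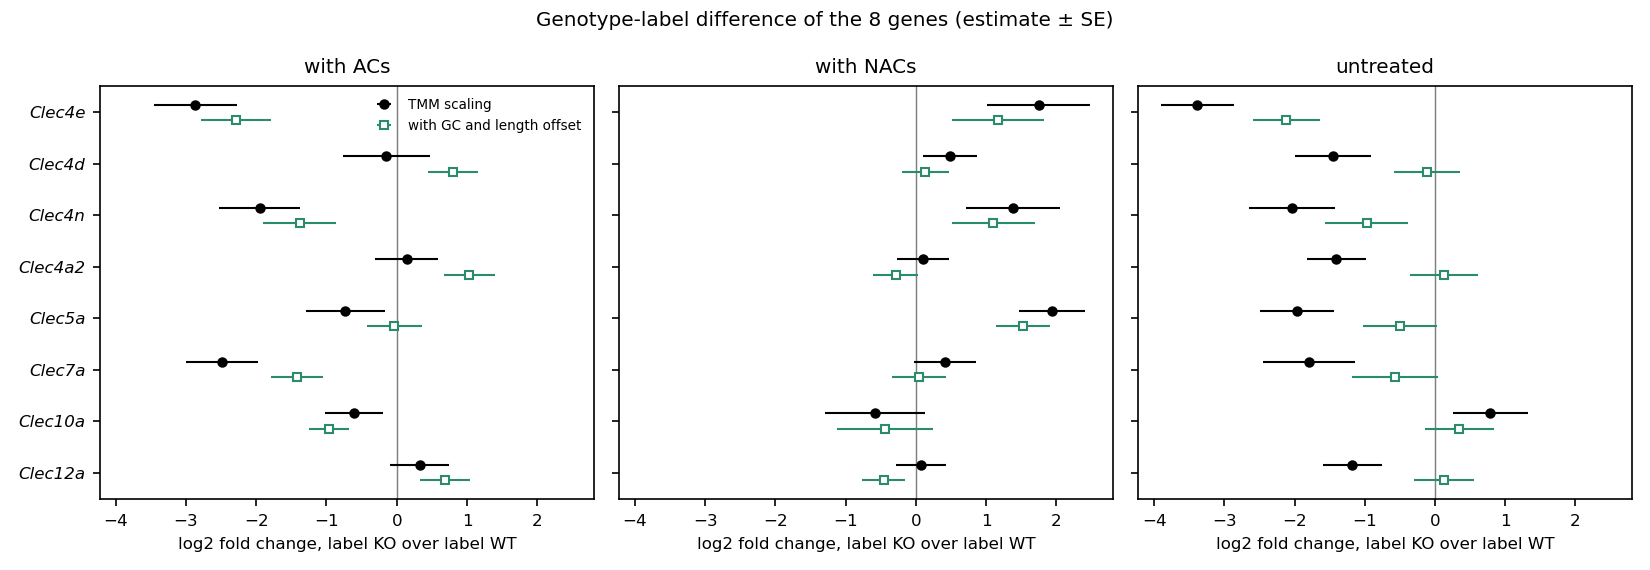
Log2 fold change (points) ± SE of the KO label over the WT label for each gene with ACs, with NACs and untreated, from edgeR with TMM scaling (black circles) and with a GC and length offset (green squares). With ACs Clec4e and Clec7a lie below 0 in both fits, and without treatment the offset moves the 7 genes on chromosome 6 towards 0 or past it.

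ACs and NACs were then compared within each label. In WT no member passed, and no gene did (0.0% of 11844). In edgeR 493 genes and none of the 8 members had an unadjusted p under 0.05. The Wald test of DESeq2 called 0 members and 0 of 25305 genes. In the KO label 4 members were lower with ACs than with NACs, Clec4e, Clec4n, Clec7a and Clec5a, beside 7.38% of 12244 genes. Clec4e was 9.11-fold lower (log2 -3.19, SE 0.49, edgeR adjusted p = 0.00101), with every AC library (36.3, 21.3 and 10.6 CPM) below every NAC library (341, 174 and 113 CPM). Clec4n was 5.61-fold lower (log2 -2.49, SE 0.44, edgeR adjusted p = 0.00140), at 148, 134 and 169 CPM beside 1499, 614 and 427. Clec7a was 5.08-fold lower (log2 -2.34, SE 0.42, edgeR adjusted p = 0.00143), at 187, 213 and 205 CPM beside 1515, 1035 and 543. Clec5a was 2.96-fold lower (log2 -1.57, SE 0.48, edgeR adjusted p = 0.0435). The groups of all 4 were apart, and those of the other 4 members overlapped. The share of all genes with groups apart is not given for this comparison, so this count cannot be set against it. Between the labels that share was 27.0% to 40.9%. Clec4d in particular had 262, 623 and 229 CPM with ACs and 635, 369 and 220 CPM with NACs. The log2 difference was -0.11 for Clec4d, -0.14 for Clec4a2 and -0.11 for Clec12a (edgeR adjusted p = 0.906, 0.867 and 0.896), and with the GC and length offset it turned positive, at 0.92, 1.11 and 0.70 (adjusted p = 0.105, 0.0782 and 0.158).

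With the GC and length offset, Clec4e and Clec4n kept the call in the KO label (edgeR adjusted p = 0.0235 and 0.0365), and Clec7a and Clec5a lost it (0.0888 and 0.405). With all 18 libraries in one fit Clec4e was called and Clec4n, Clec7a and Clec5a were not (edgeR adjusted p = 0.101, 0.0697 and 0.0906). Without NAC replicate 1 the log2 difference of Clec4n was -1.77 (edgeR adjusted p = 0.0146). Without AC replicate 1 all 4 calls were lost in edgeR (adjusted p = 0.0919 for Clec4e, 0.125 for Clec4n, 0.105 for Clec7a and 0.223 for Clec5a). That of Clec5a was also lost without AC replicate 3 (0.120) or without NAC replicate 1, 2 or 3 (0.163, 0.0618 and 0.102). The 10 fibroblast markers summed to 109 to 298 CPM in the KO libraries with ACs and to 14.0 to 64.3 CPM in those with NACs. Their part in these differences was not tested.

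Coculture against no treatment gave opposite directions in the 2 labels with NACs. In WT, Clec4e and Clec5a were lower with NACs than untreated, beside 8.52% of 11912 genes, by log2 -2.04 (SE 0.55, edgeR adjusted p = 0.0345) and -1.76 (SE 0.49, adjusted p = 0.0269). In KO the same 2 genes were higher with NACs, beside 6.54% of 12143 genes, by log2 3.17 (SE 0.55, edgeR adjusted p = 0.0353) and 2.26 (SE 0.47, adjusted p = 0.0354). Groups did not overlap in any of these 4 comparisons of single genes. The share of all genes without overlap is given here between the labels alone, at 27.0% to 40.9%, and not for NACs against no treatment. None of the 4 calls was kept with the offset, where edgeR adjusted p = 0.384 and 0.223 in WT and 0.120 and 0.353 in KO for Clec4e and Clec5a. With the offset no gene passed in WT (0 of 11912) or in KO (0 of 12143). In WT both calls were lost with all 18 libraries in one fit (edgeR adjusted p = 0.145 for each) and that of Clec4e with the Wald test of DESeq2 (adjusted p = 0.0695), and in KO both were lost with DESeq2 size factors (edgeR adjusted p = 0.0624 for each). The replicate block also ended both calls in KO (edgeR adjusted p = 0.0883 for Clec4e and 0.0921 for Clec5a), where it called 0 of 12143 genes. With single libraries left out, the Clec4e call in WT was kept only without NAC replicate 2, and the adjusted p without each other library was 0.0581 (untreated replicate 2) to 0.217 (NAC replicate 1). The Clec5a call in WT was kept without NAC replicate 2 or untreated replicate 3, and the others gave 0.0800 (untreated replicate 2) to 0.236 (untreated replicate 1). Both calls in KO were kept only without untreated replicate 1, and the other libraries gave up to 0.209 (NAC replicate 1, where Clec4e had log2 2.57). In the KO label the 10 fibroblast markers summed to 85.4 to 120 CPM untreated and to 14.0 to 64.3 CPM with NACs. Lyz2 had 1479, 2560 and 3091 CPM untreated and 12860, 5128 and 8812 CPM with NACs there, while the other 7 macrophage markers summed to 4502 to 15380 CPM untreated and 5737 to 6962 CPM with NACs, which overlap. The part of these markers in the result was not tested. The NAC and AC comparisons share the untreated libraries of their label. With ACs against no treatment no member passed in WT (0.0% of 12199 genes) or in KO (0.0% of 12136). In edgeR an unadjusted p under 0.05 was found for 2 members and 1551 genes in WT and for 1 member and 1761 genes in KO. The Wald test of DESeq2 called none of the members for which it gave an adjusted p, 6 in WT and 3 in KO. Of all genes it called 0 of 2709 in WT and 13 of 1203 in KO.

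Whether the genotype labels differed by treatment was tested as an interaction. Between NACs and no treatment 7 of the 8 members passed, all but Clec10a, beside 34.8% of the 13005 genes, with the KO over WT difference higher with NACs. The interaction was log2 5.33 (SE 0.94, edgeR adjusted p = 0.00158) for Clec4e and 4.14 (SE 0.73, adjusted p = 0.000904) for Clec5a. These 2 were also called with the offset alone (log2 3.50 and 2.31, edgeR adjusted p = 0.0269 and 0.0383) and without any single library of the 12. The other 5 were Clec4n at log2 3.63 (edgeR adjusted p = 0.0226), Clec7a at 2.50 (0.0398), Clec4d at 2.16 (0.0230), Clec4a2 at 1.71 (0.0265) and Clec12a at 1.45 (0.0436). With DESeq2 size factors and with all 18 libraries in one fit, Clec7a, Clec4d, Clec4a2 and Clec12a lost the call (edgeR adjusted p = 0.0543 to 0.123), and without a filter and in the Wald test of DESeq2 Clec4a2 and Clec12a did (0.0533 to 0.127). With the offset none of these 5 passed, and Clec4a2 and Clec12a turned negative, at log2 -0.14 and -0.36. Between ACs and NACs no member passed, beside 0.0765% of 13076 genes. Clec4e was at log2 -4.54 (edgeR adjusted p = 0.0605), Clec7a at -2.84 (0.0665), Clec5a at -2.62 (0.0725) and Clec4n at -3.24 (0.110). These 4 members had an unadjusted p under 0.05 in edgeR, as did 2620 of all genes. DESeq2 called 3 members, beside 750 of 12195 genes. With single libraries left out the log2 values were -5.3 to -3.8 for Clec4e and -3.5 to -2.2 for Clec7a. They were -3.4 to -2.4 for Clec5a and -3.9 to -2.3 for Clec4n. Without WT NAC replicate 2, Clec4e (edgeR adjusted p = 0.0326), Clec7a (0.0243) and Clec5a (0.0199) passed. Clec7a and Clec5a also passed without KO AC replicate 2 (edgeR adjusted p = 0.0498 and 0.0330), and Clec7a without WT AC replicate 2 (0.0270). Between ACs and no treatment no member passed and no gene did (0.0% of 13225). An unadjusted p under 0.05 was found in edgeR for 2 members and 3187 genes. DESeq2 called 0 members and 1211 of 11033 genes.

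**Figure D3:**
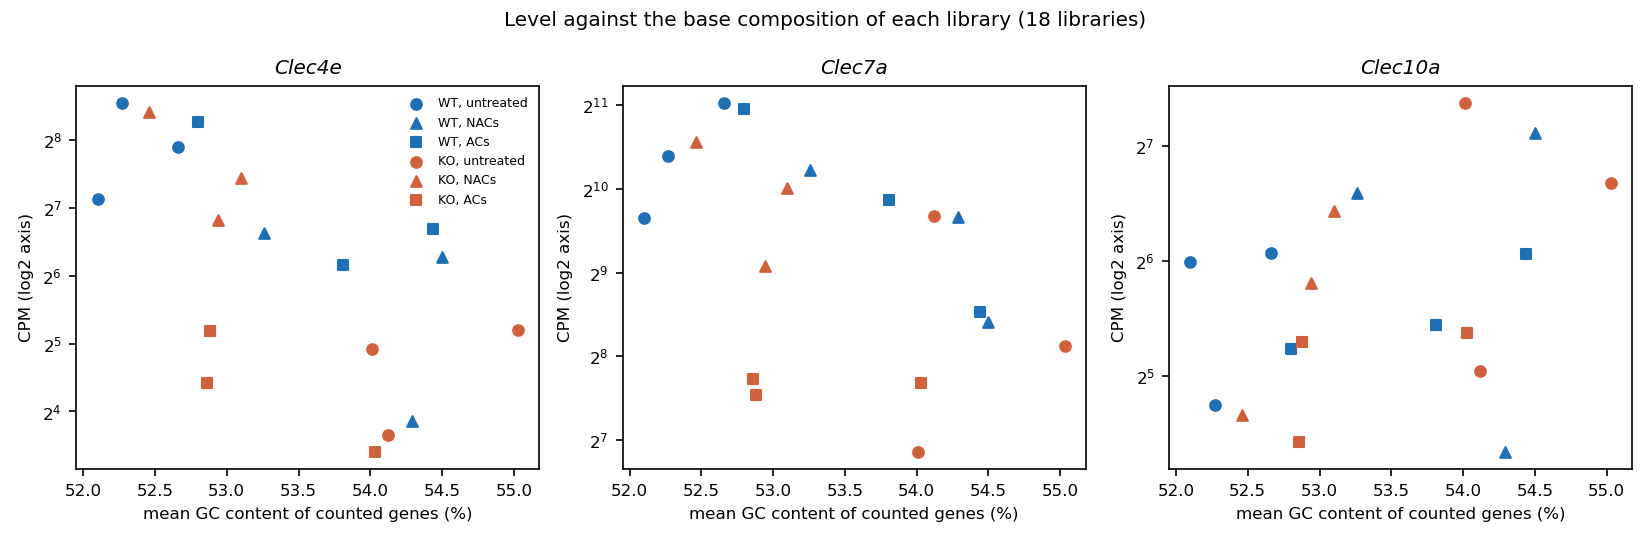
Level of Clec4e, Clec7a and Clec10a (CPM, log2 axis) against the mean GC content of counted genes (%) in each of the 18 libraries, coloured by genotype label and with a symbol for each treatment. With ACs, where the labels overlap in GC content, the 3 KO libraries lie below the 3 WT libraries for Clec4e and Clec7a.

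Clec10a stood apart from the other members. It did not pass in any of the 12 comparisons, and over the 18 libraries its log2 level had a Pearson correlation with the other 7 members between -0.33 (Clec4d) and 0.27 (Clec12a). Clec4d and Clec12a passed only in the interaction of the labels with NACs or no treatment, beside 34.8% of all genes, and not with the offset. Clec10a is also the member with exons above the median GC content (51.9% beside 50.3%), and the part of this was not tested. In each of the 6 groups the library with the lowest Hdac3 was also the library with the lowest Clec10a, a pattern noticed after the values were seen. For Clec12a this held in 5 of the 6 groups, for Clec4n in 3, for Clec4e and Clec4a2 in 2, for Clec4d in 1 and for Clec5a and Clec7a in 0. The library with the lowest Hdac3 was instead the highest one in 4 groups for Clec4d, Clec5a and Clec7a, in 3 for Clec4e and Clec4n, in 1 for Clec4a2 and Clec12a and in 0 for Clec10a. Hdac3 was the third nearest gene to Clec10a among the kept genes, with r = 0.82 over the 18 libraries, after Slc25a33 (0.84) and Psmb9 (0.82). These are descriptions over libraries that also share depth and base composition.

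**Figure D4:**
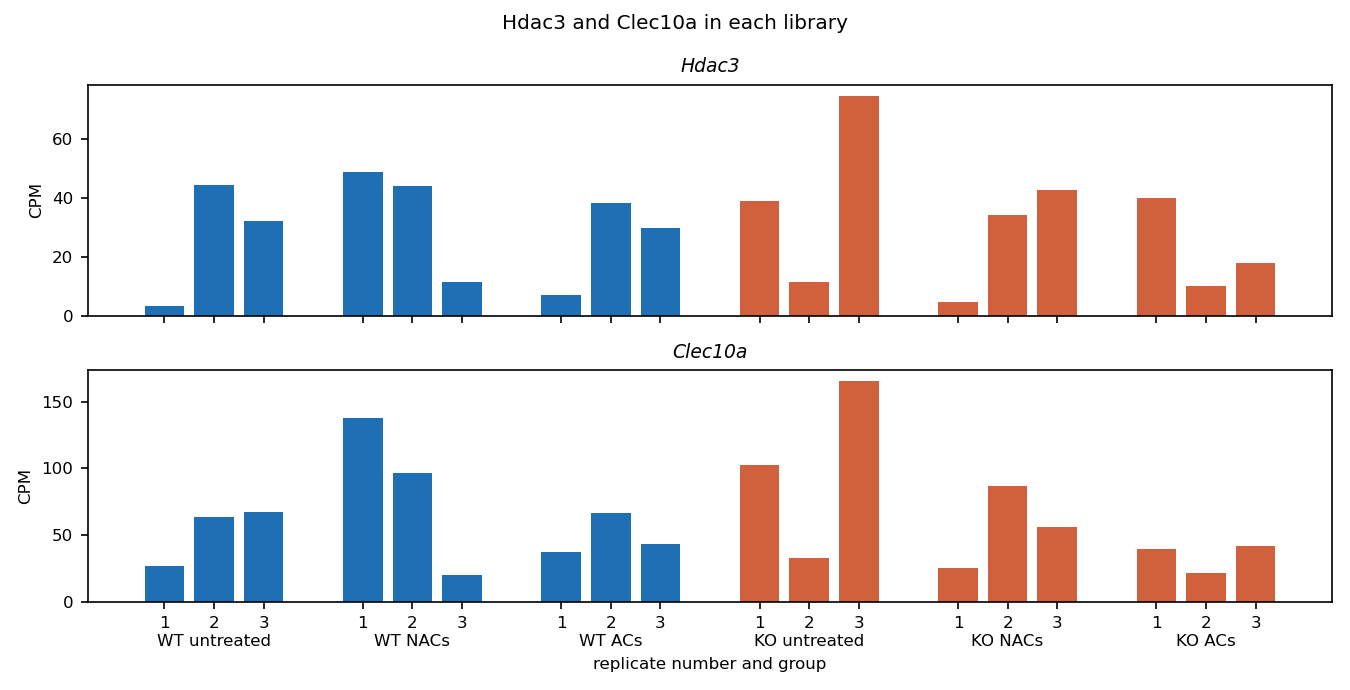
Level (CPM) of Hdac3 (top) and Clec10a (bottom) in each library, with 1 bar a library, the replicate number and group below, blue for the WT label and orange for the KO label. Within each of the 6 groups the shortest Hdac3 bar and the shortest Clec10a bar belong to the same library.

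The other members were described by the same measure, the Pearson correlation of log2 CPM over the 18 libraries, which share depth and base composition. Clec4e was nearest to Cd86 (r = 0.98), a costimulatory ligand for T cells, then to Psmd10 (0.97) and Zfp639 (0.95). Clec7a was nearest to Ccl9 (0.95), a macrophage chemokine, and Clec5a to Mx2 (0.94) and Trim30a (0.93), which are interferon-stimulated genes. Clec4n was nearest to Rexo2 (0.91), Ssu72 (0.91) and the acute phase gene Saa3 (0.90), and Clec4d to Sdhaf4 (0.90). Clec4a2 was nearest to Srgn (0.90), a proteoglycan of secretory granules, and Clec12a to Ms4a4c (0.88). Among the members themselves the highest pairs were Clec4e with Clec4n (0.88), Clec4a2 with Clec12a (0.80), the 2 inhibitory receptors, and Clec4e with Clec5a (0.79). Clec4d and Clec4e, neighbours on chromosome 6 whose products pair at the cell surface, had r = 0.59.

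The wider pathway was described through 4 lists. The adaptors were abundant, with a median over the 18 libraries of 1294 CPM for Fcer1g and 890 for Tyrobp, beside 196 for Syk and 15.2 for Card9, and these 4 genes did not pass in any comparison in edgeR with TMM scaling and all its libraries. With the GC and length offset Card9 passed in the interaction of the labels with NACs or no treatment (log2 2.70, edgeR adjusted p = 0.0173). With ACs, where 3.75% of all genes tested passed, none of 14 tested other C-type lectins of myeloid cells, of 16 adaptors, kinases and phosphatases or of 16 genes of the CARD9, NF-kB and NFAT arm passed between the labels in edgeR with TMM scaling. An unadjusted p under 0.05 was found for 1, 5 and 5 of them, beside 2988 of all 12304 genes. DESeq2 called 0, 2 and 2, beside 1344 of 13497 genes. Of 10 tested genes that receptor signalling induces, Egr2 was higher in the KO label (log2 2.13, edgeR adjusted p = 0.0240), at a mean of 25.0 ± 4.19 CPM beside 5.57 ± 2.18 (SD, n = 3). Its call was lost without KO replicate 1 (edgeR adjusted p = 0.314) and kept with the offset (0.0245). With the offset 3 further list genes passed, the induced genes Tnf (log2 -1.16, edgeR adjusted p = 0.0259) and Cebpb (log2 2.04, adjusted p = 0.0320) and the NF-kB subunit Relb (log2 -1.15, adjusted p = 0.0165). Median log2 differences of the 4 lists with ACs were 0.19, 0.51, 0.51 and -0.37, beside -0.67 over the 8 members and -0.0062 over all genes.

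Without treatment, where 11.6% of all genes tested passed, 2 of 12 tested other C-type lectins were lower in the KO label, the mannose receptor Mrc1 (log2 -1.50, edgeR adjusted p = 0.0415) and the early activation marker Cd69 (log2 -2.58, adjusted p = 0.0459). Of the signalling lists, the exchange factor Vav1 was higher (log2 1.69, edgeR adjusted p = 0.0408) and Map3k7, the kinase TAK1, was lower (log2 -1.49, adjusted p = 0.0434), each 1 of 16. Of 11 tested induced genes, the anti-inflammatory cytokine Il10 was lower (log2 -2.52, edgeR adjusted p = 0.0438). None of these 5 calls was kept with the offset (edgeR adjusted p = 0.237 to 0.830) or without WT replicate 1, 2 or 3 or KO replicate 2 or 3 (0.0659 to 0.197). Cd69 had log2 -3.27 without KO replicate 3. The medians of the 4 lists were -1.36, 0.84, -0.077 and -0.16, beside -1.62 over the 8 members and 0.058 over all genes. With NACs no gene of the 4 lists passed between the labels in edgeR. Of the 12, 16, 16 and 11 genes tested, 4, 3, 5 and 4 had an unadjusted p under 0.05, beside 2891 of all 11923. DESeq2 called 0, 0, 0 and 2, beside 476 of 11028 genes.

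With ACs against NACs in the KO label, where 7.38% of all genes tested passed, the chemokine Cxcl2 was lower (log2 -2.61, edgeR adjusted p = 0.00229) and Egr2 higher (log2 1.60, adjusted p = 0.0204) among 11 tested induced genes. The collagen receptor Mrc2 was higher (log2 2.13, edgeR adjusted p = 0.0238) and Cd69 lower (log2 -2.14, adjusted p = 0.0382) among 15 tested other C-type lectins, and the lipid phosphatase Inpp5d (SHIP1) was higher (log2 1.49, adjusted p = 0.0320) among 16 adaptors, kinases and phosphatases. None of the 16 genes of the CARD9 arm passed in edgeR, and 2 had an unadjusted p under 0.05, beside 3095 of all 12244. DESeq2 called 1, beside 1396 of 12851 genes. Of these 5 calls that of Cxcl2 was kept with the offset (edgeR adjusted p = 0.0129), with which the lectin Clec4a1 passed as well (log2 1.60, adjusted p = 0.0448), and all 5 were lost without AC replicate 1 (0.106 to 0.205). Egr2 was also lost without AC replicate 3 or NAC replicate 2 or 3 (edgeR adjusted p = 0.0640 to 0.153), Mrc2, at log2 2.95 without NAC replicate 3, without AC replicate 3 or NAC replicate 1 or 2 (0.0738 to 0.124), and Cd69 and Inpp5d without AC replicate 3 or NAC replicate 1, 2 or 3 (0.0623 to 0.142). The medians of the 4 lists were -0.059, 0.36, 0.26 and -0.39, beside -1.13 over the 8 members and 0.091 over all genes.

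With NACs against no treatment in WT, where 8.52% of all genes tested passed, Cd69 and, among the induced genes, Il1b, Cxcl2 and Nlrp3 were lower, and the NF-kB subunit Rela was higher. In KO the same comparison, beside 6.54% of all genes, had Mrc1 and Map3k7 higher. None of these 7 calls was kept with the GC and length offset (edgeR adjusted p = 0.194 to 0.449), with which 0 of 11912 genes passed in WT and 0 of 12143 in KO. In the interaction of the labels with NACs or no treatment, 5 of 13 other C-type lectins were higher, 2 of 16 adaptors, kinases and phosphatases were higher and 1 lower, 4 of 16 genes of the CARD9 arm were higher and 3 lower, and 4 of 11 induced genes were higher, beside 34.8% of the 13005 genes tested. With the offset Bcl10, the CARD9 partner, and the induced genes Cxcl2 and Nlrp3 were still called (edgeR adjusted p = 0.00741, 0.0271 and 0.0217), and Nfatc1 (log2 1.84, adjusted p = 0.0202) and Nfatc2 (log2 2.20, adjusted p = 0.0156) passed with the offset alone, as Card9 did. The other list genes called in this interaction lost the call with the offset (edgeR adjusted p = 0.0514 to 0.916). In the other 5 comparisons edgeR with TMM scaling called no gene of the 4 lists. An unadjusted p under 0.05 was found for 0 to 6 of a list and for 493 to 3187 of all genes. DESeq2 called 0 to 4 of a list and 0 to 1211 of all genes. With ACs against no treatment it gave an adjusted p for only 0 to 11 genes of a list. With the offset 1 list gene passed in these 5 comparisons, Cxcl2 in the interaction of the labels with ACs or NACs (log2 -2.95, edgeR adjusted p = 0.0235, beside log2 -3.52 and 0.0561 with TMM scaling).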

How the data were processed

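RNA from 18 BMDM libraries, 3 in each of 6 groups taken from the sample labels, was sequenced in paired ends. The submitters' processing notes name Trimmomatic 0.36, STAR 2.5.2b, featureCounts of Subread 1.5.2 and GRCm38. The strand setting and the annotation release are not given in the sources used here. The deposited values are raw counts per gene, whole numbers that the authors did not normalize. Human K562 RNA that matched mouse genes would have been counted with them.

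The 12 comparisons were tested with edgeR 4.0.16 under R 4.3.3, using only the libraries of the groups compared (filterByExpr with minimum count 10 and minimum total count 15, TMM, robust glmQLFit, glmQLFTest), adjusted over all genes tested, with a threshold of 0.05. Adjustment was within each comparison. Exact permutation tests on log2(CPM + 1) were two-sided. Levels are CPM with TMM factors over the 18 libraries, correlations use log2 CPM with a prior count of 2, and the GC and length offset was a smooth curve for each library (mgcv 1.9.3). Alternatives were DESeq2 1.42.0 (size factors and the Wald test, the study's own test), no filter, a joint fit of all 18 libraries, a replicate block, the offset with and without that block, and each library left out. The procedure was tested on simulated data.

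The genes named were the 8 members in every comparison, Hdac3 and Lyz2 as a check of the labels, list genes past the threshold and, for each member, up to 3 genes nearest in pattern. Fcer1g, Tyrobp, Syk and Card9 were named after their values were seen, as were the list genes that passed with the offset alone. The members and lists were chosen with earlier results of these data known. Total counts ranged from 4704491 to 26421267.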

Additional observations from a re-analysis of the deposited data

Results flagged for a closer look

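The difference between the KO and WT labels was itself different with NACs and without treatment for 7 of the 8 genes, by the edgeR interaction test, beside 34.8% of all genes tested. The log2 interaction, with positive values where the KO over WT difference was higher with NACs, was 5.33 for Clec4e, 4.14 for Clec5a, 3.63 for Clec4n, 2.50 for Clec7a, 2.16 for Clec4d, 1.71 for Clec4a2 and 1.45 for Clec12a. The KO minus WT difference in the mean GC content of counted genes moved in the opposite direction, from above 0 untreated to below 0 with NACs, and its part in the result was not tested. The untreated libraries with the KO label had 54.0% to 55.0% and those with the WT label 52.1% to 52.7%, while with NACs the KO label had 52.5% to 53.1% and the WT label 53.3% to 54.5%. With a GC and length offset alone, Clec4e and Clec5a passed (edgeR adjusted p = 0.0269 and 0.0383), at log2 3.50 and 2.31, and the other 5 did not (0.146 to 0.906). The calls of Clec4e and Clec5a were kept whichever of the 12 libraries was left out, at log2 4.61 (without WT NAC replicate 3) or more for Clec4e and 3.42 (without WT untreated replicate 1) to 4.75 (without WT NAC replicate 2) for Clec5a. Clec4e had log2 4.71 without KO NAC replicate 1 and 4.68 without WT untreated replicate 1. That of Clec4n was lost without KO untreated replicate 1 or 2, KO NAC replicate 1 or WT untreated replicate 1 (edgeR adjusted p = 0.0552 to 0.0947), and its log2 value fell to 2.42 without the last of these, 2.85 without KO NAC replicate 1 and 2.92 without WT NAC replicate 3. That of Clec4d was lost without KO untreated replicate 2 or 3, KO NAC replicate 1, WT NAC replicate 1 or 3 or WT untreated replicate 1 (0.0609 to 0.199), the last of which left log2 1.05. That of Clec4a2 was kept without KO untreated replicate 3, KO NAC replicate 1, WT untreated replicate 3 or WT NAC replicate 2, and lost without each of the other 8 (0.0515 to 0.134), with log2 1.11 without WT NAC replicate 3. That of Clec7a was kept without KO untreated replicate 2 or WT NAC replicate 2 and lost without each of the other 10 (0.0624 to 0.183), with log2 3.33 without KO untreated replicate 2, 1.78 without KO untreated replicate 3 and 1.86 without WT NAC replicate 1. That of Clec12a was kept without WT NAC replicate 2 and lost without each of the other 11 (0.0637 to 0.218).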

How the results depend on the processing

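The number of members called with ACs between the labels was 2 in the main fit and 2 or 3 under the alternatives that used every library, and 0 to 3 with single libraries left out. For NACs between the labels (1 called) it was 3 without a filter, 3 with the replicate block, and 0 with all 18 libraries in one fit or with the GC and length offset, with or without the block. The count was 0 to 3 with single libraries left out. Untreated (4) it was 2 with DESeq2 size factors, 7 with the DESeq2 Wald test, 3 with the replicate block, 0 with the offset and 0 with the offset and block, and 0 to 5 with libraries left out. For ACs against NACs in KO (4) it was 1 with all 18 libraries, 2 with the offset, 3 with the offset and block (Clec4e and Clec4n lower and Clec4d higher with ACs), and 0 to 4 with libraries left out. For NACs against untreated in WT (2) it was 1 with the Wald test, 3 with the replicate block, 3 without a filter, 0 with all 18 libraries, 0 with either offset fit, and 0 to 4 with libraries left out. In KO (2) it was 0 with DESeq2 size factors, 3 with the Wald test, 4 without a filter, 0 with the replicate block, 0 with either offset fit, and 0 to 3 with libraries left out. The interaction of the labels with ACs or NACs (0) gave 3 with the Wald test, 4 without a filter, 2 with the replicate block, 1 with the offset and block, and 0 to 3 with libraries left out, and that with NACs or untreated (7) gave 3 with DESeq2 size factors, 5 with the Wald test and 5 without a filter, 6 with the replicate block, 3 with all 18 libraries, 2 with the offset, 1 with the offset and block (Clec4e, with Clec5a at edgeR adjusted p = 0.0711), and 2 to 7 with libraries left out. For the other alternatives and the fits with libraries left out, calls over all genes are not given. Changes in the member counts there cannot be set against those of all genes. Calls over all genes (10419 to 15577 tested) were counted for the Wald test, the replicate block and the offset. In that order they were 1344, 373 and 1286 with ACs and 476, 217 and 0 with NACs. They were 3191, 1336 and 0 untreated and 1396, 1400 and 685 with ACs against NACs in KO. NACs against untreated gave 1446, 1784 and 0 in WT and 1956, 0 and 0 in KO. The interactions gave 750, 152 and 302 with ACs or NACs and 5522, 4280 and 1589 with NACs or untreated. The remaining counts of members were 0 in every fit, in the Wald test over the members that had an adjusted p. Of the differences below that changed sign, 1 passed in the fit that reversed it, that of Clec4d with ACs against NACs in KO. Clec4d with ACs went from log2 -0.15 to 0.096 with the replicate block, 0.80 with the offset, 0.96 with the offset and block, and to 0.063 without KO replicate 1, 0.13 without KO replicate 3 and 1.02 without WT replicate 1, within a range of -0.75 to 1.02 with single libraries left out. Clec4a2 with ACs ranged from -0.059 (without KO replicate 1) to 0.47. Untreated, Clec4d reached 0.12 with the offset and block, Clec4a2 0.13 with the offset, and Clec12a 0.13 with the offset and 0.14 with the offset and block. With NACs, Clec4a2 went from 0.099 to -0.29 with the offset and -0.20 with the offset and block and Clec12a from 0.071 to -0.46 and -0.41, with ranges of -0.21 to 0.60 and -0.18 to 0.61 with single libraries left out. The interaction with NACs or untreated reached -0.14 and -0.12 for Clec4a2 and -0.36 and -0.43 for Clec12a with the offset, alone and with the block. With ACs against NACs in KO, Clec4d went from -0.11 to 0.92 with the offset and 1.02 with the offset and block (edgeR adjusted p = 0.0491), Clec4a2 from -0.14 to 1.11 and 1.00, and Clec12a from -0.11 to 0.70 and 0.70. With single libraries left out Clec4d ranged from -0.74 to 0.37, Clec4a2 from -0.37 to 0.18 and Clec12a from -0.36 to 0.20. The cause of these shifts was not tested. Same-numbered libraries deviated together with correlations of -0.33 to 0.46, and in no comparison were all 3 above 0.1, so the numbers were not read as pairs. Of 787 refits of the 55 differences of single genes, 488 kept direction and side of the threshold, 223 lost the call, 42 gained one and 34 reversed. Clec5a, with as few as 6 counts, is the member that depth limits most.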
